A study of Mus musculus with 8 samples.

Results

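The genes described here encode a set of death receptors, a death ligand and the proteins that carry their signal to apoptosis or necroptosis: Tnfsf10, Fas, Tnfrsf1a, Tnfrsf1b, Fadd, Casp8, Ripk1, Ripk3 and Mlkl. They were taken by symbol through their Ensembl identifiers, and they are 9 of the 55450 genes in the expression table. Messenger RNA had been sequenced in bulk from cultures grown from bone marrow. The donor mice carried a Sjögren's syndrome form of dry eye, an autoimmune disease of the glands that wet the eye and mouth. One group received recombinant S100A8/A9, a pair of calcium-binding proteins that myeloid cells release during inflammation. The other received phosphate-buffered saline and is called vehicle here. Each group held 4 libraries, numbered 1 to 4, and all 8 came from the same disease model, so no library from a mouse without the disease is among them. The strain, the age of the mice, the dose and the duration of treatment are not given in the sources used here. The comparison asks which signaling pathways S100A8/A9 engages in these cells.

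Death receptors are surface proteins of the tumour necrosis factor receptor family whose intracellular death domain recruits adaptors when a ligand binds. Through FADD they bring caspase-8 molecules together, and active caspase-8 starts apoptosis. Where caspase-8 activity is blocked, RIPK1 and RIPK3 assemble instead, RIPK3 phosphorylates MLKL, and MLKL breaches the plasma membrane in the lytic death called necroptosis. In dendritic cells and macrophages the same proteins also carry inflammatory signals that do not kill, and much of the pathway is controlled by phosphorylation, ubiquitin and cleavage, which messenger RNA does not show.

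Replicates 1 to 3 of both groups shared 1 table of FPKM (fragments scaled to transcript length and library size), while a table made separately holds the replicate 4 libraries. Tests therefore used replicates 1 to 3, with replicate 4 beside them. Within the first table libraries correlated at 0.982 to 0.993 in log2(FPKM + 1), and across tables at 0.929 to 0.936. Replicate 4 held about 33400000 reads with S100A8/A9 and 31900000 with vehicle, while the depth of replicates 1 to 3 could not be recovered from their values. The cell type label reads dendritic cell, whereas the titles of the samples abbreviate a name commonly given to macrophages. Of 8 dendritic cell markers, 6 reached 1 FPKM in all 6 libraries and Flt3 and Dpp4 did not, while all 9 macrophage markers did. Summed dendritic cell markers were 3399 to 4734 FPKM with S100A8/A9 and 3132 to 4706 FPKM with vehicle. Most of that sum was Cd74, at 2779 to 3823 FPKM with S100A8/A9 and 2530 to 3790 FPKM with vehicle, a class II chaperone gene that macrophages also express, so it does not tell these cells apart. Over replicates 1 to 3, summed macrophage markers were 580 to 998 FPKM with S100A8/A9 and 536 to 949 FPKM with vehicle. They were highest in replicate 1 of both groups. The labels do not say that replicates are separate animals or cultures, so p-values measure only the spread between these libraries.

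None of the 8 death receptor and necroptosis genes that were abundant enough to test passed an adjusted p of 0.05 in limma. The test required 1 FPKM in at least 3 of the 6 libraries, which Tnfsf10 did not reach. Without regard to replicate number limma called 0 of the 8, against 0% of 11387 genes tested, with an adjusted p of 1.00 for each. With the replicate number as a block it also called 0 of the 8, against 0.518% of all genes, and the smallest adjusted p was 0.502, for Ripk1. At an unadjusted p under 0.05 the block fit held Ripk1 and Mlkl, 2 of the 8, against 7.97% of all genes. The fit without the block held 0 of the 8 at that level, against 3.02%. The values of the 2 groups overlapped for each of the 8 genes, while groups did not overlap for 4.71% of all genes with S100A8/A9 higher and for 1.94% with it lower.

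Within replicate numbers, Mlkl, Fas and Tnfrsf1a were each higher with S100A8/A9 in all 3 pairs, 3 of 8 genes against 19.4% of all genes, and with quantile scaling this held for Mlkl alone. Ripk1 was lower in all 3 pairs, 1 of 8 against 9.62%. The remaining 4 tested genes were mixed. The median difference over the 8 genes was 0.10 on the log2(FPKM + 1) scale, beside 0.02 over all genes tested. By pair the medians were 0.09, 0.11 and 0.12 for the 8 genes, beside -0.01, 0.01 and 0.08 for all genes. In replicate 4 they were 0.01 for the 8 genes and 0.02 for all genes.

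**Figure D1:**
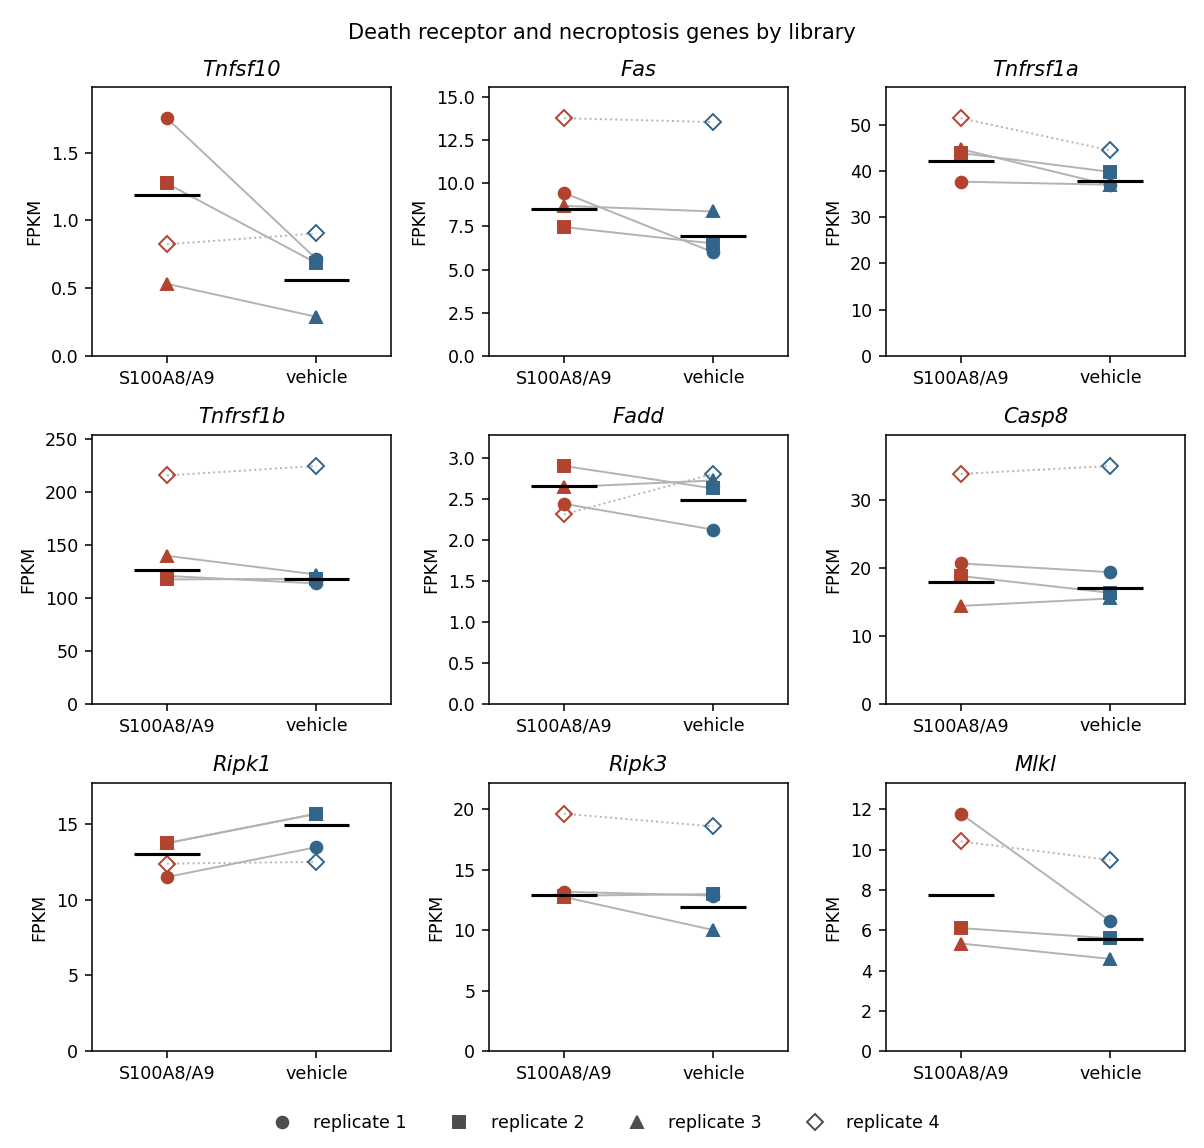
Expression in FPKM of each of the 9 genes by library, S100A8/A9 on the left and vehicle on the right. Lines join libraries of the same number, bars are means of replicates 1 to 3, and open diamonds are replicate 4 from the separately made table. The groups of replicates 1 to 3 overlap in every panel, and Mlkl has a single high S100A8/A9 library at 11.8 FPKM.

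Tnfsf10 encodes TRAIL, a ligand that triggers apoptosis through a death receptor and that interferons induce in many immune cells. It had 1.76, 1.27 and 0.532 FPKM with S100A8/A9 in replicates 1, 2 and 3, against 0.714, 0.685 and 0.288 FPKM with vehicle. S100A8/A9 was higher in all 3 pairs, with ratios of 2.46, 1.86 and 1.85, although the groups overlapped because replicate 3 was low in both. In replicate 4 the order turned, with 0.824 FPKM with S100A8/A9 and 0.905 FPKM with vehicle, worth about 145 and 152 reads. Because the gene was near the detection filter, a lower minimum of 0.5 FPKM, chosen after seeing the data, was used to bring it into the fit. Its log2 difference of 0.46 then had an adjusted p of 0.442 in the blocked limma fit and 1.00 in the unblocked one. The gene lies on chromosome 3 (chr3:27317028-27342427, forward strand, mm10). In bulk RNA, a change in the number of cells that express it and a change in RNA per cell cannot be told apart, for this gene and those that follow.

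Fas encodes the receptor for Fas ligand, the prototype of a death-domain receptor. It had 9.45, 7.47 and 8.70 FPKM with S100A8/A9, against 6.0, 6.51 and 8.37 FPKM with vehicle, and in replicate 4 13.8 FPKM with S100A8/A9 against 13.6 FPKM with vehicle. The pairs were unequal, with ratios of 1.57, 1.15 and 1.04 in the first 3 and 1.02 in the last. The mean was 8.54 ± 0.998 FPKM with S100A8/A9 and 6.96 ± 1.25 FPKM with vehicle (SD, n = 3 each). Its log2 difference of 0.27 had a 95% interval of -0.01 to 0.54 with the block and an adjusted p of 0.657 in limma, and was 0.11 without the replicate 1 pair. Fas ligand itself, Fasl, was below the filter, at 0 to 0.230 FPKM with S100A8/A9 and 0.0677 to 0.274 FPKM with vehicle.

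Tnfrsf1a and Tnfrsf1b encode TNFR1 and TNFR2, the receptors for tumour necrosis factor, of which TNFR1 has a death domain and TNFR2 does not. Tnfrsf1a had 37.7, 43.9 and 44.8 FPKM with S100A8/A9, against 37.1, 39.8 and 36.9 FPKM with vehicle. It was also higher in replicate 4, at 51.5 FPKM with S100A8/A9 against 44.5 FPKM with vehicle, a ratio of 1.16. All 4 pairs thus shared the direction, and the share of all genes that did so was not computed. The log2 difference over replicates 1 to 3 was 0.14, with an interval of -0.02 to 0.31 and an adjusted p of 0.708 in the blocked limma fit. Tnfrsf1b was the most abundant of the 9 genes, with 121, 117 and 140 FPKM with S100A8/A9, against 114, 118 and 122 FPKM with vehicle. Its replicate 2 and replicate 4 pairs went the other way, with ratios of 0.994 and 0.960. Over replicates 1 to 3 the TNFR2 to TNFR1 ratio averaged 3.00 ± 0.284 with S100A8/A9 and 3.11 ± 0.175 with vehicle (SD, n = 3 each), which overlap. In replicate 4 the ratio was higher, at 4.19 with S100A8/A9 and 5.05 with vehicle.

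Fadd, the adaptor between death receptors and caspase-8, was expressed at 2.45, 2.91 and 2.65 FPKM with S100A8/A9, against 2.13, 2.63 and 2.73 FPKM with vehicle. Casp8, the initiator caspase that also cleaves RIPK1 and RIPK3, had 20.7, 18.8 and 14.4 FPKM with S100A8/A9, against 19.4, 16.3 and 15.5 FPKM with vehicle. With S100A8/A9 both were higher in replicates 1 and 2 and lower in replicates 3 and 4. Their log2 differences were 0.07 for Fadd and 0.06 for Casp8, with adjusted p of 0.924 and 0.909 in the blocked limma fit. Among replicates 1 to 3, Casp8 was highest in replicate 1 and lowest in replicate 3 of both groups. So were the macrophage and the dendritic cell marker sums, whose part in the Casp8 values was not tested. In replicate 4 Casp8 was higher than in any of these, at 33.9 FPKM with S100A8/A9 and 35.1 FPKM with vehicle. Fadd shares 239 exonic bases, 6.1% of its exons, with the antisense gene Faddos, and without strand information reads there cannot be assigned.

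Ripk1 encodes the kinase that sits at TNFR1 and decides between survival signaling, apoptosis and necroptosis. It was the only one of the 8 tested genes that was lower with S100A8/A9 in all 3 pairs. It had 11.5, 13.7 and 13.7 FPKM with S100A8/A9, against 13.5, 15.7 and 15.7 FPKM with vehicle, so the ratios of 0.854, 0.876 and 0.876 were nearly alike. The groups still overlapped, since vehicle replicate 1 lay below S100A8/A9 replicates 2 and 3. The log2 difference was -0.19 ± 0.07 (moderated SE, n = 3 pairs). That SE borrows spread from other genes in limma, so it is not the spread of these pairs alone. The interval was -0.35 to -0.03, not adjusted for the number of genes, and the adjusted p was 0.502 in the blocked limma fit. Replicate 4 gave 12.4 FPKM with S100A8/A9 and 12.5 FPKM with vehicle, a ratio of 0.991. Ripk1 lies on chromosome 13 (chr13:34002363-34037147, forward strand, mm10), where 2.9% of its exonic bases overlap Serpinb6a on the other strand and 6.1% overlap the pseudogene Gm17084.

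Ripk3, the kinase that activates MLKL, had 13.2, 12.9 and 12.8 FPKM with S100A8/A9, against 12.9, 13.0 and 10.0 FPKM with vehicle. Vehicle replicate 3 alone stood below the other 5 libraries. The log2 difference of 0.11 had an interval of -0.10 to 0.33 and an adjusted p of 0.844 in the blocked limma fit. The ratio of Ripk1 to Ripk3 was 0.872, 1.07 and 1.08 with S100A8/A9, against 1.05, 1.21 and 1.56 with vehicle, lower in all 3 pairs, and in replicate 4 it was 0.630 with S100A8/A9 against 0.672 with vehicle. The order was the same in all 4 pairs, and the groups of replicates 1 to 3 overlapped. The widest gap was in replicate 3, where Ripk3 was low with vehicle. Several ratios between these genes were formed, and the share of ratios with 1 order in all 4 pairs was not computed. The order is therefore a description only.

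Mlkl, the executioner of necroptosis, is interferon-inducible in many mouse cells. It had 11.8, 6.12 and 5.35 FPKM with S100A8/A9, against 6.46, 5.60 and 4.58 FPKM with vehicle, and in replicate 4 10.4 FPKM with S100A8/A9 against 9.49 FPKM with vehicle. All 4 pairs were higher with S100A8/A9, by ratios of 1.83, 1.09, 1.17 and 1.10, so the size rested on replicate 1. The share of all genes higher in all 4 pairs was not computed. Its log2 difference was 0.36 ± 0.14 (moderated SE, n = 3 pairs). The unadjusted interval was 0.02 to 0.69 and the adjusted p was 0.587 in the blocked limma fit. Without S100A8/A9 replicate 1 the difference was 0.05, and without the whole replicate 1 pair it was 0.15. Ripk3 to Mlkl ratios were 1.12, 2.10 and 2.38 with S100A8/A9, against 1.99, 2.32 and 2.19 with vehicle, and the low first value came from S100A8/A9 replicate 1. In replicate 4 they were 1.89 with S100A8/A9 and 1.96 with vehicle.

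**Figure D2:**
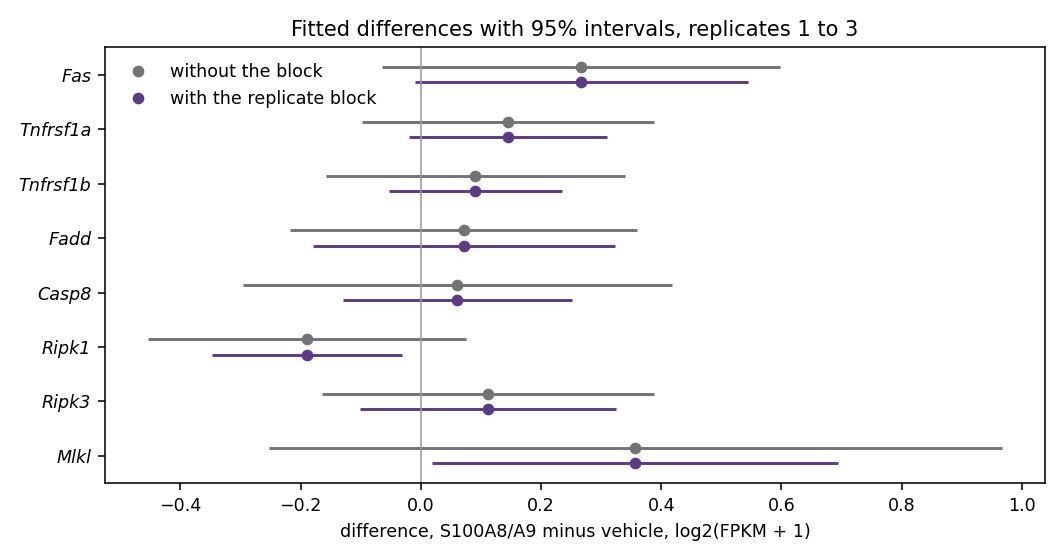
Difference of S100A8/A9 minus vehicle in log2(FPKM + 1) for the 8 tested genes, replicates 1 to 3, with 95% intervals that are not adjusted for the number of genes. Grey points are the fit without the replicate block and purple points the fit with it. With the block the intervals of Ripk1 (-0.35 to -0.03) and Mlkl (0.02 to 0.69) lie to 1 side of 0, and without it all 8 intervals include 0.

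By mean level in FPKM, which depends on the exon lengths the authors used, the order with S100A8/A9 was Tnfrsf1b, Tnfrsf1a, Casp8, Ripk1, Ripk3, Fas, Mlkl, Fadd and Tnfsf10. The order with vehicle was the same. With S100A8/A9 the ranges of Ripk1 and Ripk3 overlapped, as did those of Fas and Mlkl. With vehicle those of Casp8 and Ripk1 overlapped, as did those of Fas and Mlkl. Every other pair of neighbours was separated in its group. The most variable genes with S100A8/A9 were Tnfsf10 and Mlkl, with coefficients of variation of 51.9% and 45.4%, while Ripk3 varied by 1.73%. Replicate 4 gave another order, with Ripk3 and Fas above Ripk1 in both groups. There Ripk3 had 19.6 FPKM with S100A8/A9 and 18.6 FPKM with vehicle, and Fas had 13.8 and 13.6 FPKM. Ripk1 had 12.4 and 12.5 FPKM.

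A list of 53 other genes of the pathway, chosen for their roles with earlier results of these data known, was read in the same way. Of these, 48 could be tested and none passed in either fit, with 0 of 48 called against 0% and 0.518% of all genes. At an unadjusted p under 0.05 limma held 8 of the 48 with the block against 7.97% of all genes, and 3 without it against 3.02%. All 8 were higher with S100A8/A9, as were 698 of the 908 genes at that level over the whole table. Of the 48, 18 were higher in all 3 pairs and 1 was lower in all 3, against the 19.4% and 9.62% of all genes. The median difference was 0.08 on the log2(FPKM + 1) scale. Groups did not overlap for 6 of the 48, all with S100A8/A9 higher, against 4.71% of all genes with it higher and 1.94% with it lower.

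By role, none of the 4 tested ligands or 5 tested receptors passed. Tnf, the ligand of both TNF receptors and singled out after its values were seen, had 6.68, 6.02 and 6.67 FPKM with S100A8/A9, against 5.74, 5.29 and 5.30 FPKM with vehicle, without overlap. Its ratios were 1.16, 1.14 and 1.26, and 1.31 in replicate 4. The TRAIL receptor Tnfrsf10b was below the filter, at 0.533 to 1.53 FPKM with S100A8/A9 and 0.563 to 0.804 FPKM with vehicle. Tnfrsf21, a death-domain receptor, had log2 differences near 0 that changed sign between scalings, and Tnfrsf22, a decoy TRAIL receptor of the mouse, differed by -0.08.

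Among 6 adaptors and partners of the RIPK kinases, Zbp1 had the largest difference of the pathway. It encodes a sensor of Z-form nucleic acid that can recruit RIPK3 directly and is itself interferon-inducible. It had 36.5, 24.2 and 17.3 FPKM with S100A8/A9, against 9.0, 14.2 and 11.5 FPKM with vehicle, with no overlap. The ratios were 4.06, 1.70 and 1.5, and 1.11 in replicate 4, where the levels were 7.96 FPKM with S100A8/A9 and 7.16 FPKM with vehicle. The log2 difference of 1.06 ± 0.25 (moderated SE, n = 3 pairs) did not pass, at adjusted p = 0.231 in the blocked limma fit and 0.882 in the unblocked one. Leaving out 1 pair from the blocked limma fit gave 0.64 without replicate 1, 1.23 without replicate 2 and 1.32 without replicate 3. The adjusted p of these fits, which rest on fewer pairs, were 0.0778, 0.0834 and 0.335. With all 8 libraries and the block the difference was 0.83, at adjusted p = 0.395 in limma.

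Of 13 brakes and ubiquitin enzymes, 7 were higher in all 3 pairs and none was lower in all 3, against 19.4% and 9.62% of all genes. Rnf31 encodes HOIP, the catalytic subunit of the ubiquitin ligase that builds linear chains on RIPK1 and limits its killing. It had 16.9, 15.9 and 17.2 FPKM with S100A8/A9, against 11.3, 13.1 and 11.9 FPKM with vehicle, and did not overlap. Its log2 difference of 0.44 ± 0.08 (moderated SE, n = 3 pairs) had an adjusted p of 0.117 in the blocked limma fit. Cyld, which removes such chains, was higher in all 3 pairs, with a log2 difference of 0.32 and an adjusted p of 0.400. Cflar, which encodes the caspase-8 regulator cFLIP, had 19.0, 18.0 and 21.3 FPKM with S100A8/A9, against 18.4, 17.6 and 32.5 FPKM with vehicle. Its log2 difference of -0.17 rested on vehicle replicate 3, and without that library it was 0.10. Stub1, a ubiquitin ligase reported to act on RIPK3, differed by -0.09.

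Of 10 kinases that act on RIPK1 or upstream of it and their binding partners, 4 were higher in all 3 pairs, against 19.4% of all genes. Mapkapk2, which phosphorylates RIPK1 and restrains its killing, had 36.9, 40.5 and 45.7 FPKM with S100A8/A9, against 31.3, 33.8 and 39.5 FPKM with vehicle. Its ratios of 1.18, 1.2 and 1.16 were close to each other, with an adjusted p of 0.274 in the blocked limma fit, and replicate 4 gave 0.982. Tab1, a partner of the kinase TAK1, differed by -0.17 through S100A8/A9 replicate 1, at 2.74 FPKM against 4.02 to 4.78 FPKM with vehicle. Of 10 caspases and mitochondrial genes, 4 were higher in all 3 pairs and 1 was lower, against 19.4% and 9.62%. Bak1 and Bax, which permeabilise the outer mitochondrial membrane, averaged 53.8 ± 5.88 and 39.4 ± 6.77 FPKM with S100A8/A9, and 50.4 ± 4.85 and 38.6 ± 0.912 FPKM with vehicle (SD, n = 3 each).

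**Figure D3:**
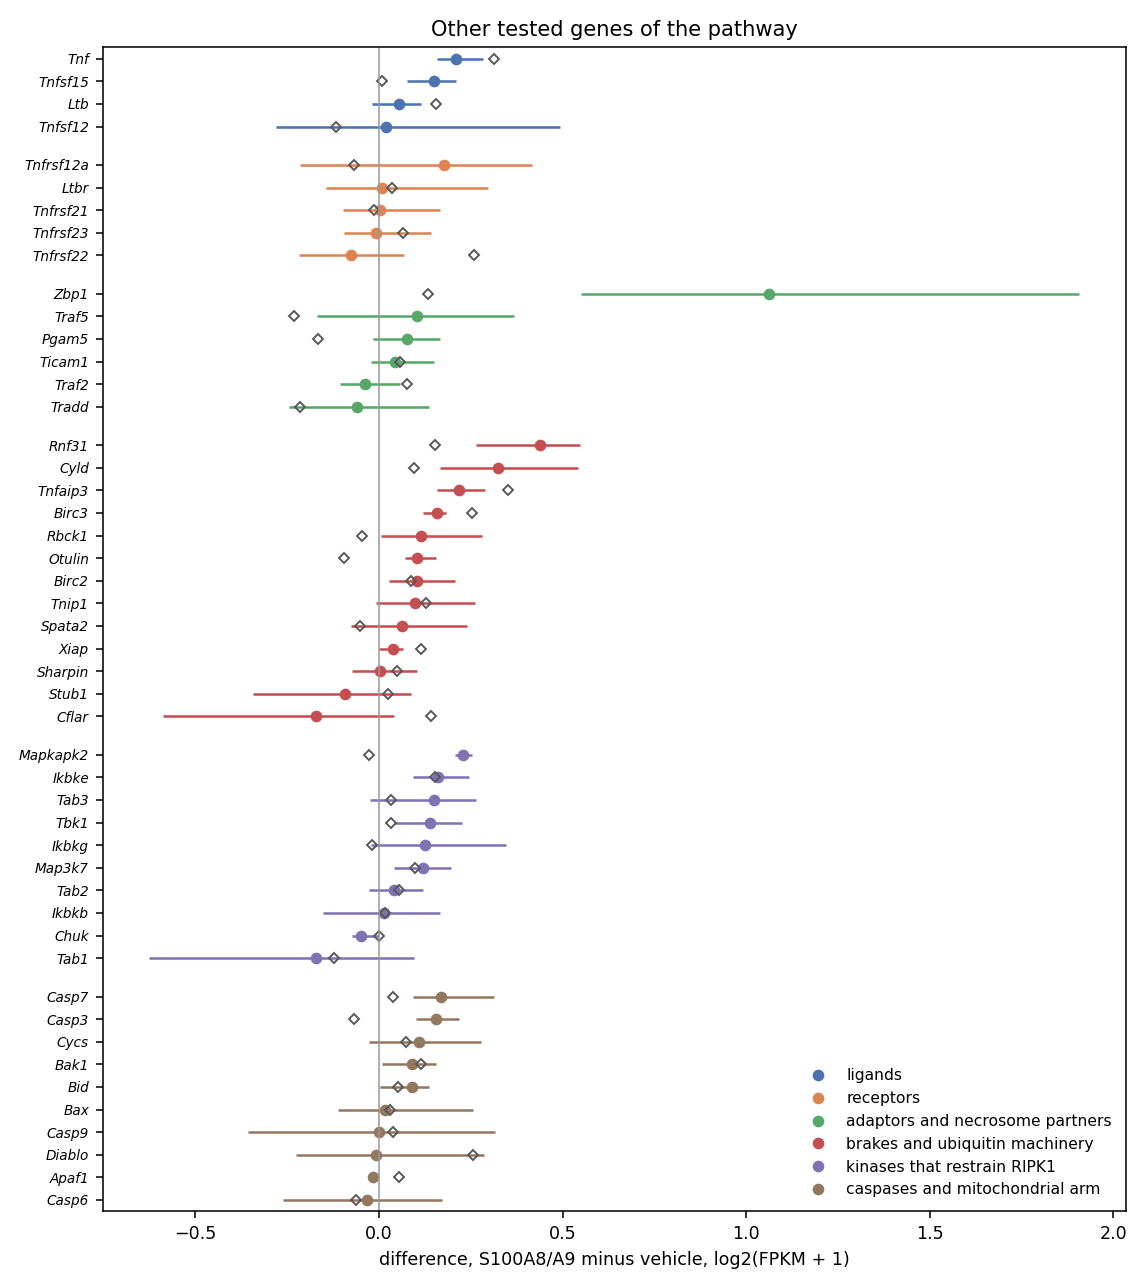
Mean difference of S100A8/A9 minus vehicle in log2(FPKM + 1) for the 48 tested genes of the wider pathway, grouped by role. Lines span the 3 within-pair values and open diamonds show replicate 4. Zbp1 stands furthest to the right at 1.06, with replicate 4 at 0.13, and most other genes lie between -0.2 and 0.25.

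Genes with a pattern like that of Tnfsf10 and Tnfrsf1b were sought by Pearson correlation of log2(FPKM + 1) over the 6 libraries, among 6440 genes. Closest to Tnfsf10 were Ifi203 (r = 0.997), Mndal (r = 0.997), Ifi204 (r = 0.995) and Oas1a (r = 0.992), and 109 genes exceeded 0.9. Closest to Tnfrsf1b were Rassf4 (r = 0.995), Znrf1 (r = 0.989), Rpap1 (r = 0.989) and Arrdc1 (r = 0.988), with 224 genes above 0.9. With 6 libraries that share 2 groups and 3 replicate numbers, such values are a description only. For 12 well known interferon-stimulated genes, the median within-pair difference was 1.68, 1.35 and 1.08 in replicates 1 to 3 and 0.20 in replicate 4. Among the 9 genes, Tnfsf10, Fas, Fadd and Mlkl had their highest difference in replicate 1, and of these all but Mlkl had their lowest in replicate 4. The share of all tested genes with such an order was not computed, so the order is a description only. Of the other pathway genes, Zbp1, Cyld, Rnf31 and Tbk1 had their highest in replicate 1 and their lowest in replicate 4, and genes with that order were not counted over the list.

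**Figure D4:**
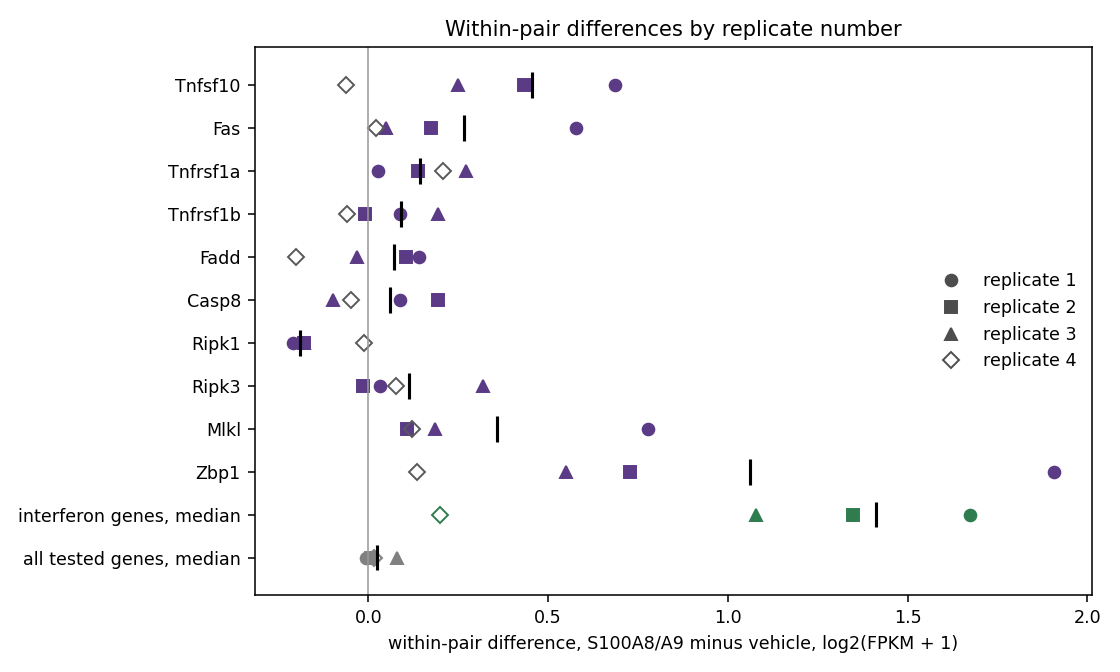
Within-pair difference of S100A8/A9 minus vehicle in log2(FPKM + 1) by replicate number for the 9 genes and Zbp1, with the medians of 12 interferon-stimulated genes and of all tested genes. Filled symbols are replicates 1 to 3, open diamonds replicate 4, and short bars the mean of replicates 1 to 3 (for the medians, the median of the gene means). Ripk1 lies left of 0 in every pair. Tnfsf10, Fas, Fadd, Mlkl, Zbp1 and the median of the interferon-stimulated genes have their highest value in replicate 1, an order whose share over all genes was not computed.

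The promoters were read for letters that interferon-activated factors are known to bind, since Tnfsf10 and Mlkl are known interferon targets. The 250 bases before each RefSeq start (GRCm38.p6) were searched on both strands for the core of the interferon-stimulated response element, written as GAAA, any 2 bases and GAAA again, and for TTCCNGGAA, a STAT dimer element. The first was in 2.98% of 32851 promoters and the second in 0.913%. All 9 genes had an entry, 10 entries in all because Ripk1 has 2 starts. Tnfrsf1b held both motifs, the response element core at 10 bases and TTCCNGGAA at 181 bases before its start. The second start of Ripk1 held 2 TTCCNGGAA matches, and the other 8 entries held neither. The next lines set Tnfrsf1b beside Ifit1, an interferon-stimulated gene with 2 such cores, and beside stretches of Mlkl and Tnfsf10 with no match, 5′ to 3′ on the strand of the gene, with matches in capitals (the core read from the other strand shows as TTTC, 2 bases and TTTC).
Tnfrsf1b: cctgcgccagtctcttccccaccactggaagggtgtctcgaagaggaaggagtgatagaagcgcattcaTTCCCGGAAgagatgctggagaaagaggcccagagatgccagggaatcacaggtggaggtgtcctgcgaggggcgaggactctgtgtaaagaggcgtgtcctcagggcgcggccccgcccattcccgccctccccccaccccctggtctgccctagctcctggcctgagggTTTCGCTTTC
Ifit1: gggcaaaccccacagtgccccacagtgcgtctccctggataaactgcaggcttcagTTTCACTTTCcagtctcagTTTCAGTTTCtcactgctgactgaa
Mlkl: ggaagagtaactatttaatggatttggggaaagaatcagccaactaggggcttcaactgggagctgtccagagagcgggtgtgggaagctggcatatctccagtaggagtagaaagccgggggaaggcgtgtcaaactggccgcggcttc
Tnfsf10: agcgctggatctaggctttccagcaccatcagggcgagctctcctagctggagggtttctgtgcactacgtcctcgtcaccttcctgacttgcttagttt
These are chr4:145246871-145247120 on the reverse strand, chr19:34640729-34640828 on the forward strand, chr8:111338206-111338355 on the reverse strand and chr3:27316927-27317026 on the forward strand. Ifit1 had 36.1, 32.6 and 13.8 FPKM with S100A8/A9, against 9.42, 9.93 and 4.65 FPKM with vehicle, a log2 difference of 1.62 at adjusted p = 0.00917 in the blocked limma fit and 0.828 in the unblocked one. That call was lost in the blocked fits of all 8 libraries (adjusted p = 0.228, log2 difference 1.31) and of all genes without a filter (adjusted p = 1.00). Tnfrsf1b, with both motifs, differed by 0.09, or 0.01 without S100A8/A9 replicate 3. Mlkl, with neither in this window, differed by 0.36, or 0.05 without S100A8/A9 replicate 1. Tnfsf10, with neither and below the filter, differed by 0.46, and by -0.06 in replicate 4. Tnfrsf1b, Mlkl and Tnfsf10 did not pass, and a link between motifs and differences was not tested. A match is a description of the letters, and no match says only that they are not in this window.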

How the data were processed

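Poly(A) RNA was sequenced on an Illumina platform after random-primed cDNA synthesis, per the labels' protocols, which state no strand marking. The authors deposited 1 value per Ensembl gene, read here as FPKM from its range and sums, since neither headers nor labels give a unit. Tools named without roles in the submitters' processing notes are featureCounts, Subread, HISAT2 and DESeq2 1.34.0, with the mm10 build. The authors made 1 table for replicates 1 to 3 (55450 genes) and another for replicate 4 (24848 genes, 24388 in both). Reads of replicate 4 were computed from FPKM and exon length. Of its values worth few reads, 98.77% with S100A8/A9 and 98.55% with vehicle came out whole within 0.01 reads. Candidate depths were chosen between by this same share. In replicates 1 to 3 only 5.33% to 6.14% of such values came out whole, so their depth is unknown.

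The test was limma-trend (limma 3.58.1, R 4.3.3) on log2(FPKM + 1) of replicates 1 to 3, for genes reaching 1 FPKM in 3 or more of 6 libraries, with Benjamini-Hochberg adjustment over 11387 genes, two-sided. The pseudocount of 1 understates changes of low genes. Standard errors and 95% intervals of differences are limma's moderated ones, which borrow spread across genes. The fits were tested on simulated data. Because the labels do not say what a replicate number marks, deviations from the group means were correlated: same-numbered libraries gave 0.59, 0.25 and 0.52 and others -0.53 to -0.01, and the numbers were therefore treated as pairs. Alternatives were the replicate block, other pseudocount, filters and scalings, all 8 libraries and leaving out libraries. The genes and lists were chosen with earlier results of these data known. Named besides the 9 genes were, of the 53 others, any called, the 4 with the largest difference in each direction and the 4 highest with vehicle, which gave 11. Tnf and Tnfsf15 were added after their values were seen, and genes below the filter are named with their values.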

Additional observations from a re-analysis of the deposited data

Results flagged for a closer look

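For 22 genes (the 9 genes, the 11 named others, Tnf and Tnfsf15) the 4 within-pair differences in log2(FPKM + 1) were searched for 1 pair far from the rest by Dixon's ratio, at its 95% critical value. It was past for 4 of the 22, and the share past it over all tested genes was not computed. Chance alone marks about 1 in 20 groups that were not chosen on these values. That rate does not apply to the 11 named others, Tnf and Tnfsf15, since most were picked for the size of these same differences. It may not hold for the 9 genes either, which were chosen with earlier results of these data known. Mlkl stood out in pair 1, at 0.78, beside 0.11, 0.19 and 0.12 in pairs 2, 3 and 4. Ripk1 stood out in pair 4, at -0.012, beside -0.21, -0.18 and -0.18 in pairs 1 to 3. Mapkapk2 stood out in the same pair, at -0.026, beside 0.23, 0.25 and 0.21. Cflar stood out in pair 3, at -0.59, beside 0.04, 0.04 and 0.14 in pairs 1, 2 and 4. Pair 4 comes from the separately made table, so its table and its replicate number cannot be told apart.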

How the results depend on the processing

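None of the 9 genes and none of the 53 others passed the threshold in any of the 26 alternatives that tested them, with a smallest adjusted p in limma of 0.347 and 0.0778. Over all genes the count of calls was 0, and 59 with the replicate block, 62 with the block and a pseudocount of 0.1, 39 with the block and common-sum scaling, and 3 with the block and median-of-ratios, upper-quartile or quantile scaling. It was 36 with the block and a minimum of 0.5 FPKM (added after seeing the data), 1 with no filter, 0 with the block and no filter, 0 with the block and all 8 libraries, and 0 to 95 when libraries were left out, the block fit giving 42 without replicate 1, 95 without replicate 2 and 5 without replicate 3. The block changed no call of the 9 genes or the 53 others. The median over the 8 tested genes (0.10) was 0.0821 with common-sum scaling, 0.0782 with median-of-ratios factors, 0.0661 and 0.0668 under upper-quartile and quantile scaling, each the same with the block. It was 0.0782 with all 8 libraries, 0.107 to 0.139 without 1 library, and 0.102 to 0.144 without 1 pair. The median over all tested genes also moved with scaling, from 0.0246 to 0.00719 with common-sum scaling and 0.00355 with median-of-ratios factors. Under upper-quartile and quantile scaling it was -0.00764 and -0.0115. That of the 48 others (0.08) ranged from 0.0137 to 0.139, at 0.0137 without S100A8/A9 replicate 3 and 0.0196 without vehicle replicate 1. The count higher in all 3 pairs was 3, 2 with median-of-ratios or upper-quartile scaling and 1 with quantile scaling. Leaving out 1 library turned the sign within these ranges: Ripk3 -0.00042 to 0.172, Casp8 -0.0426 to 0.204, Fadd -0.0071 to 0.120, Tnfrsf21 -0.182 to 0.112, Tnfrsf22 -0.172 to 0.0541, Cflar -0.324 to 0.102, Stub1 -0.232 to 0.0112, Tab1 -0.289 to 0.0152, Bax -0.117 to 0.0980 and Tnfsf15 -0.479 to 0.809. Leaving out 1 library or pair moved, with no change of sign, Mlkl over 0.05 to 0.55, Fas over 0.11 to 0.39, Tnfrsf1a over 0.08 to 0.22, Tnfrsf1b over 0.01 to 0.14, Ripk1 over -0.26 to -0.11, Zbp1 over 0.64 to 1.32, Cyld over 0.22 to 0.44, Mapkapk2 over 0.15 to 0.32 and Bak1 over 0.01 to 0.16. Leaving out 1 pair under the block gave Casp8 -0.0053 without replicate 2, Tnfrsf21 -0.0783, Stub1 0.0311 and Tab1 0.0546 without replicate 1, and Cflar 0.0381 and Bax -0.105 without replicate 3. Common-sum, median-of-ratios, upper-quartile and quantile scaling turned Tnfrsf21 to -0.017, -0.021, -0.033 and -0.062, and Bax to -0.0039, -0.0080, -0.020 and -0.042, with or without the block. With all 8 libraries Tnfrsf21 was -0.0015 and Tnfrsf22 0.0081. The cause was not tested. The unknown depth of replicates 1 to 3 leaves the counting error of low genes such as Tnfsf10 unknown.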

Other observations

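Tnfsf15, a TNF family ligand singled out after its values were seen, differed more between replicate numbers than between treatments. It had 3.12, 8.75 and 22.05 FPKM with S100A8/A9 in replicates 1, 2 and 3, against 2.67, 7.43 and 20.9 FPKM with vehicle, and in replicate 4 3.95 FPKM with S100A8/A9 against 3.92 FPKM with vehicle. Summed erythroid markers also differed by number, at 4.59, 7.58 and 115 FPKM with S100A8/A9, against 3.21, 9.42 and 129 FPKM with vehicle. Their part in the Tnfsf15 values was not tested. Summed T and NK cell markers were 7.13 to 7.32 FPKM with S100A8/A9 and 7.62 to 10.8 FPKM with vehicle, and fibroblast markers stayed below 1 FPKM in all 6 libraries. Over replicates 1 to 3, summed neutrophil markers were 63.6 to 100 FPKM with S100A8/A9 and 63.5 to 101 FPKM with vehicle. They were highest in replicate 1 of both groups. Only 1 of 9 neutrophil markers reached 1 FPKM in all 6 libraries. Summed B cell markers were 1.87 to 3.07 FPKM with S100A8/A9 and 1.54 to 2.02 FPKM with vehicle.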
